A study of Mus musculus with 6 samples.

Results

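The genes described here are abundant genes of mouse hippocampal microglia that were lower in cells rich in lipid droplets than in cells with few. Their choice used the measured values themselves. A gene was taken when its mean normalized count in the 3 BODIPY-low libraries was at least 500, all 3 BODIPY-high libraries lay below all 3 BODIPY-low libraries, and the ratio of the means (BODIPY-high over BODIPY-low) was at most 0.85. Genes whose symbol starts with Rpl or Rps, the prefixes of cytosolic ribosomal protein genes, were left out by name. The rule found 274 genes among 7168 genes of that abundance and 15912 genes in the table. The direction and the size of the difference between gates are therefore a property of the choice, and they are given below as a description.

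All 6 libraries came from male C57BL/6 mice, 3 months old, that received lipopolysaccharide (LPS, a molecule of the bacterial outer membrane to which macrophages respond through Toll-like receptor signalling) at 1 mg/kg into the peritoneum for 4 days, and brains were taken 24 hours after the last dose. Each sample combined the hippocampi of 2 mice. Live CD11b+ CD45lo cells, the usual sort for microglia, were collected (about 10000 per sample), and BODIPY, a dye of neutral lipids, divided them into BODIPY-low cells (few droplets) and BODIPY-high cells (many droplets), with 3 libraries of each. No library of mice without LPS was analysed here, so every value describes LPS-treated animals.

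Microglia are the resident macrophages of the brain. In the undisturbed tissue they are known for a set of surface receptors, secreted proteins and transcription factors often called homeostatic genes, and these fall in many states of activation. Lipid droplets store neutral lipids under a coat of perilipins and are found in microglia of aged and inflamed brain.

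Reads counted to genes, recovered from the deposited values, were 34899413 to 36518323 in BODIPY-low and 37633089 to 39220494 in BODIPY-high libraries. Depth thus differed with the gate. Genes with reads were 14149, 14031 and 14193 in BODIPY-low libraries 1, 2 and 3, and 14590, 14905 and 15088 in BODIPY-high libraries. All 10 microglia marker genes were detected. Of these, 3 are members, and the other 7 made up 6.58, 5.87 and 5.75% of counts in the BODIPY-low libraries and 6.15, 5.69 and 4.69% in the BODIPY-high libraries. Library 3 of BODIPY-high stood apart from the other 5: the chi-square per degree of freedom of its pairs with them was 84.9 to 163.5, against 29.1 to 62.8 among the others. Markers of some other cells moved with the gate. Of all 12767 tested genes, 2.03% were called higher (limma, adjusted p under 0.05). The summed normalized counts of 9 choroid plexus markers were 312, 479 and 2319.6 in BODIPY-low libraries 1, 2 and 3, and 39980.4, 52584 and 52352 in BODIPY-high libraries, and all 9 were called higher. The sums of 12 markers of border-associated macrophages were 1579.9, 1363 and 5463 against 17307, 23539 and 71839, at most 0.199% of a library, and 9 of the 12 were called higher. Of the other lists, 3 of 7 tested astrocyte, 3 of 9 oligodendrocyte lineage, 2 of 5 lymphoid or erythroid, 0 of 11 monocyte or neutrophil, 0 of 8 vascular and 0 of 3 neuron markers were called higher. The sums of 12 monocyte and neutrophil markers were 48116, 138757 and 147323 in BODIPY-low and 54497, 88429 and 211934 in BODIPY-high libraries. These sums varied widely within each gate and were highest in BODIPY-high library 3, at 0.588% of its counts. Syt1 and Gad1 (neuron) and Pdgfra (oligodendrocyte precursor) were at 0 in every BODIPY-low library. None of these markers of other cells is among the 274 genes, and the part of these cells in the differences below was not tested.

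In the test across all genes (limma on log2 normalized counts with a pseudocount of 1, adjusted p under 0.05), 3 of the 274 genes were called lower in BODIPY-high libraries. They are Kctd12, Orai1 and Fam212a, and they are also the only genes called lower among 12767 tested (0.0235%). In the same test, 259 genes (2.03%) were called higher. With the replicate number of the libraries as a block, 37 of the 274 were called lower, against 59 of all genes (0.462%, beside 558 or 4.37% called higher), and DESeq2 on recovered reads called 29, against 32 of all genes (0.251%). The edgeR quasi-likelihood test on recovered reads called 1 gene lower (0.00783%), the member Kctd12. The unadjusted p was under 0.05 for 194 of the 274. Since the rule used this contrast, these counts are no evidence about the genes.

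Kctd12, an auxiliary subunit of GABA-B receptors, is encoded by 1 exon at chr14:102976581-102982637 (GRCm38, minus strand). Its normalized counts were 18461, 16393 and 16611 in BODIPY-low libraries 1, 2 and 3, and 12205, 11069.6 and 11997 in BODIPY-high libraries 1, 2 and 3. The BODIPY-high libraries lay close together and well under the lowest BODIPY-low library, with means of 11757 ± 605 and 17155 ± 1136 (SD, n = 3) and a ratio of 0.685. An annotated gene on the other strand overlaps Kctd12, and the kits used do not keep the strand, so reads of both cannot be told apart. Orai1, the pore of the store-operated calcium channel (chr5:123015074-123030456, plus strand), had 9472, 9201 and 8959 normalized counts in BODIPY-low libraries and 7032, 6662 and 7114 in BODIPY-high libraries. Each gate spread by little for Orai1, the gates were far apart, and the ratio was 0.753. It too is overlapped by a gene on the other strand. Fam212a, known as an inhibitor of a p21-activated kinase, had 4469.8, 4426 and 4682 against 3569, 3340.2 and 3078 normalized counts, a ratio of 0.735. In bulk samples such as these, fewer cells of a type and less RNA per cell cannot be told apart.

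The promoters of these 3 genes and of Cst3, Sparc and Olfml3, secreted proteins and the 3 most abundant genes found, are shown because they are the genes on which the counts above and the levels below turn. This choice was made after the values were seen. Each window runs from 250 bases before to 50 bases after the annotated start, 5′ to 3′ on the gene's strand (RefSeq, GRCm38.p6). Capitals mark matches to the GC box GGGCGG, a site of Sp1-type factors, or to the CCAAT box CCAAT, on either strand. Matches that touch or overlap run together.
Kctd12 (chr14:102982588-102982887, minus strand): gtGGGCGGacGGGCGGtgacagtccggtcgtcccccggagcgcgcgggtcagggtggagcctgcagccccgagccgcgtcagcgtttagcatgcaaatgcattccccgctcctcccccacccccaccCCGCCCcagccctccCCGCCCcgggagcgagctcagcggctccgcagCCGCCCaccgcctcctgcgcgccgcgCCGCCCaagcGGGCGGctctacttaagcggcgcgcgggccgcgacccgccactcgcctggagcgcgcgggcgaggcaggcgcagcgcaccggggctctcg
Fam212a (chr9:107985867-107986166, minus strand): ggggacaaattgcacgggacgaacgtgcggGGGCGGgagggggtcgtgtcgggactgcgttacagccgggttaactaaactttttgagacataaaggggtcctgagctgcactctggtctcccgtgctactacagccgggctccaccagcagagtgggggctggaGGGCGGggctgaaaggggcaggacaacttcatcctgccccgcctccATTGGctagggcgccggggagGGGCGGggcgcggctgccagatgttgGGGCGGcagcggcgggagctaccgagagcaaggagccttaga
Orai1 (chr5:123014824-123015123, plus strand): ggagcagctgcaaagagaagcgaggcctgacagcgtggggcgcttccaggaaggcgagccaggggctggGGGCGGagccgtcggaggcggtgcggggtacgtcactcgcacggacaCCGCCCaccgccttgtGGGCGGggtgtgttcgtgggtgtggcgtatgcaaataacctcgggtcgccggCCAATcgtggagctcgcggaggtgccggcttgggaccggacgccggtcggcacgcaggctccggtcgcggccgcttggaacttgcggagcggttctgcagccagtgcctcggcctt
Cst3 (chr2:148875463-148875762, minus strand): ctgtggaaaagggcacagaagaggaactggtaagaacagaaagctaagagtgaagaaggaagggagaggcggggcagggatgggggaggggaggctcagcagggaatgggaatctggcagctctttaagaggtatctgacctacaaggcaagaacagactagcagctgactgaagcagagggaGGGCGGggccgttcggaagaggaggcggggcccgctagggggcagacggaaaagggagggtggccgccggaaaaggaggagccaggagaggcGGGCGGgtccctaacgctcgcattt
Sparc (chr11:55420031-55420330, minus strand): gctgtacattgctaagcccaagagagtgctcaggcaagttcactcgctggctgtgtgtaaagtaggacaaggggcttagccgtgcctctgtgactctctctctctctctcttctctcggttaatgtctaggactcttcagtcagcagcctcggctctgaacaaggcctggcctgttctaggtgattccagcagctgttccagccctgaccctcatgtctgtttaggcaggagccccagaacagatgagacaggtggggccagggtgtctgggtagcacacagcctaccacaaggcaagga
Olfml3 (chr3:103737952-103738251, minus strand): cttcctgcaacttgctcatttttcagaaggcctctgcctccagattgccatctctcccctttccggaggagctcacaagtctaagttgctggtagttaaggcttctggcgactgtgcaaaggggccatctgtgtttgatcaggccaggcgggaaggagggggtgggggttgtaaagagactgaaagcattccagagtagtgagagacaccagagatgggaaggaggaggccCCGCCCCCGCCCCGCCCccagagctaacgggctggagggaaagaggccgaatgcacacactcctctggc

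The Kctd12 window held 7 GC boxes, the Fam212a window 4 with 1 CCAAT box, the Orai1 window 3 with 1 CCAAT box, the Cst3 window 2 GC boxes and the Olfml3 window 3. The Sparc window held neither motif. This window lies wholly inside the gene interval given for Sparc below (chr11:55394500-55423183). A start at the outer end of that interval is not shown, so the absence holds for this window only. Of all 32851 RefSeq promoter windows of this length, 35.7% held a GC box and 37.4% a CCAAT box. Of 7301 windows of abundant genes outside the rule, 64.6% held a GC box and 37.2% a CCAAT box, so these letters are common. None of the 6 windows held the ETS motif AGGAAGT, the AP-1 motif TGANTCA or the TATA box TATAAA, which says only that these letters are not in these windows. A promoter window was found for 217 of the 274 genes (79.2%). This is under 80%, so a comparison of promoter letters over the genes is void and is not given.

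Ratios of the 274 genes ran from 0.589 to 0.85, with quartiles of 0.769, 0.805 and 0.830, while the median over all 7168 abundant genes was 0.984. Most differences were small: 145 genes had a ratio over 0.80, 79 lay between 0.75 and 0.80, 30 between 0.70 and 0.75, and 20 at or below 0.70. Of the abundant genes, 516 (7.2%) had all BODIPY-high libraries below all BODIPY-low libraries and 467 (6.52%) had the reverse. Of those 516, 242 had a ratio above 0.85, and a further 413 genes had a ratio of at most 0.85 but overlapping gates. The same rule turned upward found 251 genes (3.5%), close in number to the 274 (3.82%). At the bounds, Cd3eap, Tubb2b and Jrk lay just inside a mean of 500 and Lsm12, Zbtb4 and Pdcd2 just outside, with Tubb2b at 510.3 and Lsm12 at 499.6. Grpel1, Rock2 and Hhex lay just inside the ratio of 0.85 (0.849 for Hhex) and Fbxo22, Gtf2h2 and Npc1 just outside it. Genes on either side of a bound were thus nearly alike in value.

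**Figure D1:**
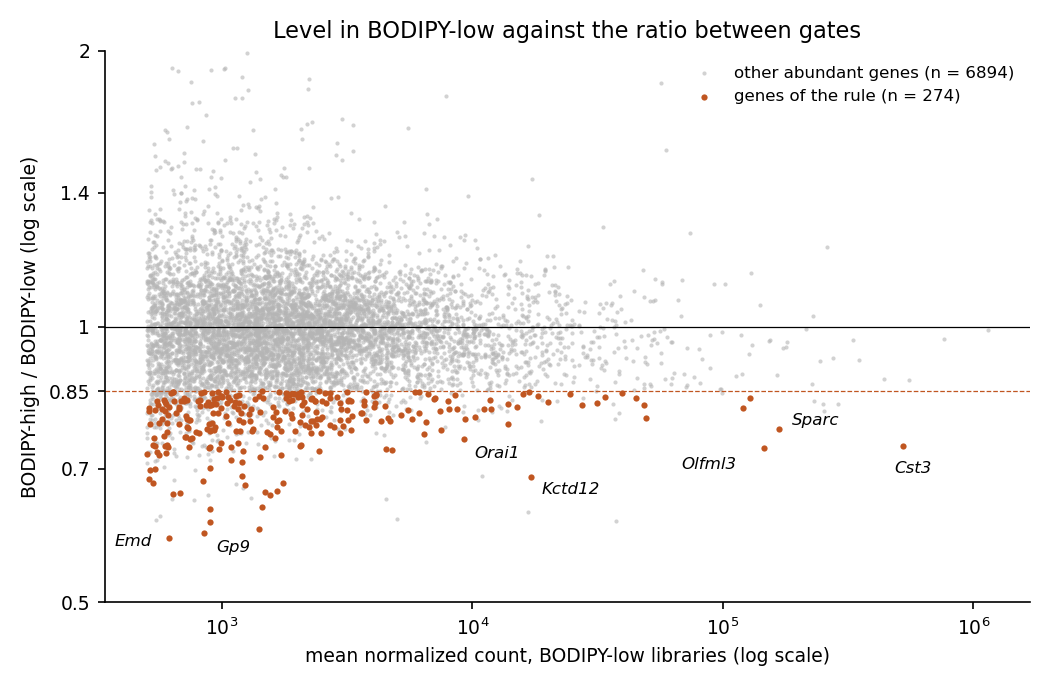
Ratio of BODIPY-high to BODIPY-low means (log scale) against the mean normalized count in BODIPY-low libraries (log scale), 1 point per abundant gene, with the 274 genes of the rule in colour and the bound of 0.85 dashed; 25 genes outside the ratios of 0.5 to 2 are not drawn. The coloured points run from means of about 500 up to Cst3, and most lie just under the bound.

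Each of the 6 libraries contributed. The lowest BODIPY-high value was in library 1 for 69 genes, in library 2 for 98 and in library 3 for 107, and the highest BODIPY-low value was in library 1 for 90, in library 2 for 96 and in library 3 for 88. Between libraries of the same number, the median ratio of the 274 genes was 0.826, 0.777 and 0.790, against 0.988, 0.995 and 0.968 for all abundant genes. The gap between gates was narrow for many: in 105 genes the highest BODIPY-high library lay within 5% of the lowest BODIPY-low library, and in 23 it lay at least 15% under it. The median coefficient of variation within a gate was 8.04% (BODIPY-low) and 8.02% (BODIPY-high), against 9.93 and 10.5% over all abundant genes, as a rule that asks for gates without overlap favours genes of low spread.

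Together the 274 genes made up 5.21, 5.47 and 5.69% of all counts in BODIPY-low libraries 1, 2 and 3, and 4.50, 4.21 and 4.37% in BODIPY-high libraries. Their summed normalized counts stood at a ratio of 0.786. The 5 most abundant (Cst3, Sparc, Olfml3, C1qa and Gpr34) stood at 0.765 and the other 269 at 0.809. By level, members were 97 of 1944 abundant genes with means of 500 to 1000 (4.99%), 107 of 3097 up to 3000 (3.45%), 45 of 1559 up to 10000 (2.89%), 20 of 532 up to 100000 (3.76%) and 5 of 36 above that (13.9%). The last share rests on those 5 genes.

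Secreted and matrix proteins hold the most abundant of the genes. Cst3, which encodes the protease inhibitor cystatin C (chr2:148871722-148875692), had 456440.0, 528303 and 585672 normalized counts in BODIPY-low libraries 1, 2 and 3 and 402700.4, 356800.2 and 404387 in BODIPY-high libraries. BODIPY-low library 1 was the lowest of its gate and still lay above all BODIPY-high libraries, with means of 523472 ± 64751 and 387963 ± 27001 (SD, n = 3) and a ratio of 0.741. Sparc, a matricellular protein (chr11:55394500-55423183), had 165536, 175169.8 and 161918 against 146215, 119899 and 122619 normalized counts. BODIPY-high library 1 was nearer to the low gate than the other two, and the ratio was 0.773. Olfml3 (chr3:103722222-103738001) had 159891, 139897 and 139022 against 122929, 106524 and 93938 normalized counts, so library 1 was the highest of each gate, and the ratio was 0.737. Rtn4rl1, a Nogo receptor homolog, had a ratio of 0.840. Scaled to transcript length, the BODIPY-low mean of Cst3 was 608688 normalized counts per kilobase, that of Sparc 122651 and that of Olfml3 26765.

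These 4 are the members among 28 abundant genes of the list of homeostatic secreted and matrix genes (14.3%, beside 3.82% of all abundant genes). Of the 28, 24 had a ratio below 1 (median 0.899). This lean depends in part on BODIPY-high library 3, as given below with gene structure. The 25 genes of that list outside the rule that could be tested moved both ways: 20 had a negative and 5 a positive log2 change. Limma called 1 of them, Igf1, a growth factor listed at 68.0, 86.6 and 140.0 normalized counts in BODIPY-low and 329, 653 and 1157 in BODIPY-high libraries (log2 change 2.73, SE 0.45, adjusted p = 0.0202). Gas6, the bridging ligand of TAM receptors, had 7390.4, 6800.3 and 9267 against 10759.9, 11373 and 19705 and did not pass the test (log2 change 0.79, SE 0.22, limma adjusted p = 0.163, with the block 0.00161).

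The list of homeostatic surface genes, which does not hold receptors alone, gave 5 members among 36 abundant genes (13.9%, beside 3.82% of all abundant genes). Gpr34, a receptor for lysophosphatidylserine (chrX:13632089-13640858), had 123057, 122986 and 116387 normalized counts in BODIPY-low and 109282, 112552 and 73673 in BODIPY-high libraries. Its BODIPY-high mean of 98502 ± 21565 (SD, n = 3) was pulled down by library 3, since libraries 1 and 2 were within 10% of the low gate. Trem2, a lipid-binding receptor that signals through Tyrobp (chr17:48346401-48354147), had 45509, 48000.1 and 51173 against 40139.6, 38525 and 40226. The 3 BODIPY-high libraries of Trem2 nearly coincided, and the ratio was 0.822. Ecscr, a small surface protein also known from endothelium, had a ratio of 0.788. Ltc4s, an enzyme that makes leukotriene C4, had 0.793, and Kcnk6, a potassium leak channel, 0.824.

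Nearly the whole list leaned the same way. Of its 36 abundant genes, 35 had a ratio below 1 and the median was 0.854, beside 4036 of 7168 abundant genes (56.3%) and a median of 0.984. These 36 include the 5 members, whose ratios the rule bounds. All lists were chosen with earlier results of these data known, so the lean is a description. Among the 32 tested genes outside the rule, 31 had a negative log2 change, yet limma called none of them (2 had an unadjusted p under 0.05), nor did edgeR or DESeq2. With the replicate block, Slc2a5, Gpr84 and Gpr183 were called lower. Slc2a5, a fructose carrier, had 40943, 35693 and 34116 normalized counts in BODIPY-low and 36384, 27178 and 24169 in BODIPY-high libraries (ratio 0.792, limma adjusted p = 0.477, with the block 0.0340). Its gates overlap, because BODIPY-high library 1 lies above BODIPY-low library 2, although BODIPY-high was the lower library in each pair of the same number. The lean depends in part on BODIPY-high library 3: without it, 27 of the 36 genes had a ratio below 1 and the median was 0.938, whereas without BODIPY-high library 1 all 36 did and the median was 0.818.

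The best known markers of this kind were outside the rule because their gates overlapped. P2ry12, the ADP receptor of microglia, had 249229.8, 231227 and 215402 normalized counts in BODIPY-low and 231012, 211128 and 134430.0 in BODIPY-high libraries (ratio 0.829, limma adjusted p = 0.713). Tmem119 had 288932, 239582 and 225686 against 245162, 205139 and 170161 (ratio 0.823, limma adjusted p = 0.667). Cx3cr1, the fractalkine receptor, had 381275, 253761 and 232569.9 against 303405, 255254 and 155153 (ratio 0.823, limma adjusted p = 0.819). For all 3 genes BODIPY-high library 3 was the lowest of the 6 and BODIPY-low library 1 the highest. Their ratios were as low as those of many members, and what kept them out was the spread within gates. Csf1r, the receptor for CSF1, was nearer to 1 (0.969).

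**Figure D2:**
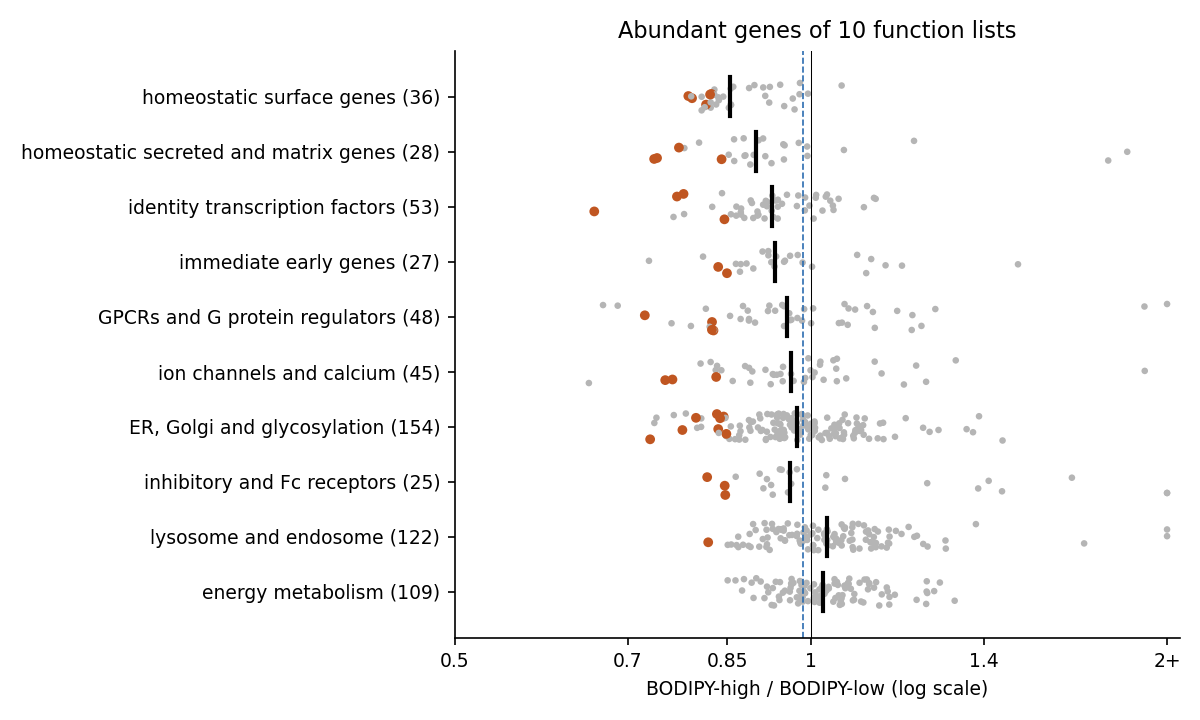
Ratio of BODIPY-high to BODIPY-low means (log scale) for the abundant genes of 10 function lists, 1 point per gene, with members of the rule in colour, the median of each list as a black bar and the median of all abundant genes (0.984) as a dashed line; ratios over 2 are drawn at 2 and the number of genes is in brackets. The median of homeostatic surface genes (0.854) lies farthest to the left, and those of lysosomal (1.03) and energy genes (1.02) lie right of 1.

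Of 11 abundant complement and coagulation genes, 2 were members (18.2%, a share that rests on those 2, beside 3.82% of all abundant genes). C1qa, a chain of complement C1q (chr4:136895917-136898803), had 122706, 125083 and 136729 normalized counts in BODIPY-low and 104291, 100579 and 116535 in BODIPY-high libraries. The highest BODIPY-high library was number 3, as was the highest BODIPY-low library, and the ratio was 0.836. Serpinf1, which encodes the serpin PEDF, had 2023, 2169 and 2241 against 1677, 1665 and 1682, a ratio of 0.781 with almost no spread in the high gate. Clu (clusterin), another gene of the complement list, was called higher (36.2, 46.4 and 115 against 1290.3, 1998 and 2304, limma adjusted p = 0.00218). In that list 5 more genes outside the rule were called higher. The markers of choroid plexus and of border-associated macrophages described above were higher too, and the part of those cells in this list was not tested.

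Among inhibitory and Fc receptors, members were Fcgr1 (ratio 0.817), Lair1 (0.845) and Fcgr4 (0.846) of 25 abundant genes (12%). Of all abundant genes, 3.82% were members. Lair1, a collagen receptor that inhibits immune cells, had 42083, 38521 and 38063 normalized counts against 35905, 37539 and 26886, so that BODIPY-high library 2 nearly reached the low gate and library 3 lay far below. In this list limma called 7 genes outside the rule higher, among them Msr1, a scavenger receptor (482, 423 and 626 against 1190.2, 1742 and 2419.5, adjusted p = 0.0138). Fc receptor genes resemble one another, and reads that fit several may have been left out of their counts. H2-DMa, which loads peptides on MHC class II (0.797), and Ifi30, a lysosomal thiol reductase (0.822), were members among interferon and antigen presentation genes. They were 2 of 49 abundant genes of that list (4.08%), whose median was 1.09. Ly86, the partner of the Toll-like receptor homolog CD180, was the member among 58 genes of Toll-like receptors and NF-kB (1.72%, ratio 0.838).

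Signalling receptors formed the next group. Adora3, the adenosine A3 receptor, had 1817, 1445 and 1904 normalized counts in BODIPY-low and 1227, 1259 and 1252 in BODIPY-high libraries. The high gate was tight and the low gate wide, and the ratio was 0.724. Rgs2, which shortens G protein signals, had 29227, 32726 and 32030.0 against 26762, 24914 and 25831 (ratio 0.825). Lpar5, a lysophosphatidic acid receptor, had a ratio of 0.825. These are 3 of the 4 members among 48 abundant genes of G protein-coupled receptors and their regulators (8.33%, beside 3.82% of all abundant genes). All 4 were among the 28 genes of 1 to 5 exons in the list, and 0 among the 20 of over 5. Genes of few exons held more members in general, as described below. In that list Fpr1, a formyl peptide receptor, was called higher (558, 605 and 833 against 1317, 2081 and 3393, limma adjusted p = 0.0300). Of 45 abundant ion channel and calcium genes, Orai1, Tmem37 (a calcium channel subunit homolog, ratio 0.764) and Xkr8 (a lipid scramblase, 0.832) were members (6.67%). Clic4 was called higher (log2 change 0.91, SE 0.18, limma adjusted p = 0.0413).

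Adhesion molecules gave 4 members of 46 (8.70%, beside 3.82% of all abundant genes). F11r, the junctional adhesion molecule JAM-A, had 53831, 47461 and 47200.5 normalized counts in BODIPY-low and 43824, 41360.1 and 32834 in BODIPY-high libraries. Library 3 was the lowest of each gate, and the ratio was 0.795. Susd3 had a ratio of 0.783, and the tetraspanins Cd37 and Cd82 had 0.832 and 0.844. Adgre1, the F4/80 antigen of macrophages, was called higher in the same list (63091, 58828 and 55976 against 80602, 101490.4 and 94954, limma adjusted p = 0.0339).

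Among 53 abundant transcription factors of microglial and macrophage identity, 4 were members (7.55%, beside 3.82% of all abundant genes). Bach1, a heme-regulated repressor, had 704, 565 and 643 normalized counts in BODIPY-low and 458, 364 and 432 in BODIPY-high libraries. Library 2 was the lowest and library 1 the highest of each gate, and the ratio was 0.656. Sall3, a relative of Sall1, had 0.770, Elf2 0.780 and Ets1 0.845, the last pair both ETS factors. Sall1 (0.873) had gates that did not overlap but a ratio above the bound, while the gates of Spi1 (0.934) and Mef2c (0.914) overlapped. The limma adjusted p of these 3 ran from 0.536 to 0.859. Cebpd, a transcription factor induced by inflammation that was on none of the lists, had 4888, 4442 and 4713 against 3297, 3497 and 4287 normalized counts (ratio 0.789). It was picked from the genes of 1 exon described below after its values were seen.

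Of 27 abundant immediate early genes, 20 had a ratio below 1, with a median of 0.932. Members were 2 of them (7.41%, beside 3.82% of all abundant genes). All 27 had 1 to 5 exons. In the exon classes described below, members were 15.6% of abundant genes of 1 exon, 15.9% of 2 and 7.64% of 3 to 5. The share of this list is thus not above that of its classes. Btg2, an antiproliferative gene, had 46712, 41184 and 47248 normalized counts against 36584, 35545 and 40692, and Btg1, its relative, 16434, 16479 and 17464 against 13867, 15174 and 13740.1. The gap between gates was narrow for Btg2 and wider for Btg1, and the ratios were 0.835 and 0.849. Fos had 8129.8, 15144 and 35142 against 8166, 10218 and 49161, a spread within each gate far wider than any difference between them, and Jun had a ratio of 0.951.

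Genes of the endoplasmic reticulum and Golgi gave 8 members of 154 abundant genes (5.19%, beside 3.82% of all abundant genes). Kdelr2, which returns proteins to the endoplasmic reticulum, had 2429, 2476 and 2399 normalized counts in BODIPY-low and 1779, 1911 and 1651 in BODIPY-high libraries. The low gate hardly varied, every BODIPY-high library was well below it, and the ratio was 0.731. Proteins that act where secreted chains enter the endoplasmic reticulum were Ssr4 of the translocon (0.779), the signal peptidase subunits Sec11a (0.799) and Sec11c (0.838), and Ostc of the oligosaccharyltransferase (0.848). The chaperone Dnajb9 had 0.833. The list as a whole sat at a median of 0.973, close to that of all abundant genes, so these 8 do not stand for it. Its sulfotransferases Chst15 (0.835) and Chst12 (0.844) were joined by Chst7 (0.829) and Chst8 (0.738), which were on no list and are named after their values were seen. With them, 4 of 7 abundant genes whose symbol starts with Chst were members, beside 3.82% of all abundant genes. This group was formed from the symbols of the members, so its share is a description only.

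Of 100 abundant lipid handling genes, 2 were members (2%, beside 3.82% of all abundant genes). Alox5ap, which presents arachidonic acid to 5-lipoxygenase, had 5128, 5505 and 5942 normalized counts against 4637, 3716 and 5076 (ratio 0.810), and Smpdl3b, a membrane phosphodiesterase, had a ratio of 0.824. The list's median was 1.02, and 4 genes outside the rule were called higher, among them Lpl, which releases fatty acids from lipoproteins (889, 846 and 1113 against 2078, 2856 and 2571, limma adjusted p = 0.00493). Lysosome and endosome genes gave 1 member of 122, the clathrin adaptor Picalm (0.819), and had a median of 1.03. Energy metabolism gave none of 109, with a median of 1.02.

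Members in the remaining lists were scattered. Chromatin and transcription machinery gave Med13, Crebbp, Usf1 and Eed of 209 genes (ratios 0.758 to 0.846), and splicing and RNA binding gave Zc3h12c, Gtpbp4, Pum2 and Rc3h2 of 160 (0.727 to 0.822). Small GTPases of vesicle traffic and their partners gave Arl4c, Arl6ip5 and Rab20 of 134 genes. Solute carriers gave Slc24a3 and Slc16a6 of 99, and redox and cell death genes gave Bmf and Bcl2a1b of 67. The shares of members in these lists ran from 1.91 to 2.99%, beside 3.82% of all abundant genes. Of further lists, 5 gave a lone member each: Nck1, Dyrk1a, Acvr1, Rnf169 and Eif4e3. In all, 67 of the 274 genes were on a function list and 207 on none, a share of 24.5% on a list beside 29.1% of all abundant genes. Of 2399 tested list genes outside the rule, limma called 0 lower (27 at an unadjusted p under 0.05) and 32 higher, edgeR and DESeq2 also called 0 lower, and the replicate block called 15 lower.

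The lowest ratios belonged to genes of modest level and varied function. Emd, which encodes emerin of the inner nuclear membrane, had 472, 922 and 451 normalized counts in BODIPY-low and 318, 358 and 409 in BODIPY-high libraries. Its ratio of 0.589 rested on BODIPY-low library 2, and libraries 1 and 3 of that gate lay just above the high gate. Gp9, a subunit of the platelet glycoprotein Ib complex, had 815, 727 and 995 against 461, 499.5 and 548 (ratio 0.595), with a clear gap. Htra3, a secreted serine protease, had 1028, 709.5 and 947 against 539, 496 and 661 (ratio 0.632).

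Hist1h1e, a linker histone of 1 exon, had 1859.7, 1052 and 1315 against 1037, 597 and 906 normalized counts (ratio 0.601), and in both gates library 1 was the highest and library 2 the lowest. Histone genes are near-identical copies, so reads that fit several may have been left out of its count. Bmf, a pro-apoptotic member of the Bcl2 family, had 1540.4, 1426 and 1489.9 against 929, 838 and 1177 (ratio 0.661). Selt, a selenoprotein of the endoplasmic reticulum, had 801, 1129 and 742 against 542, 531 and 563 (ratio 0.612), with the high gate almost constant. The other genes among the 12 lowest were Lrba (0.636), Csmd3 (0.655), Large (0.659), Klhl42 (0.661) and Arl4c (0.672), with Bach1 above.

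**Figure D3:**
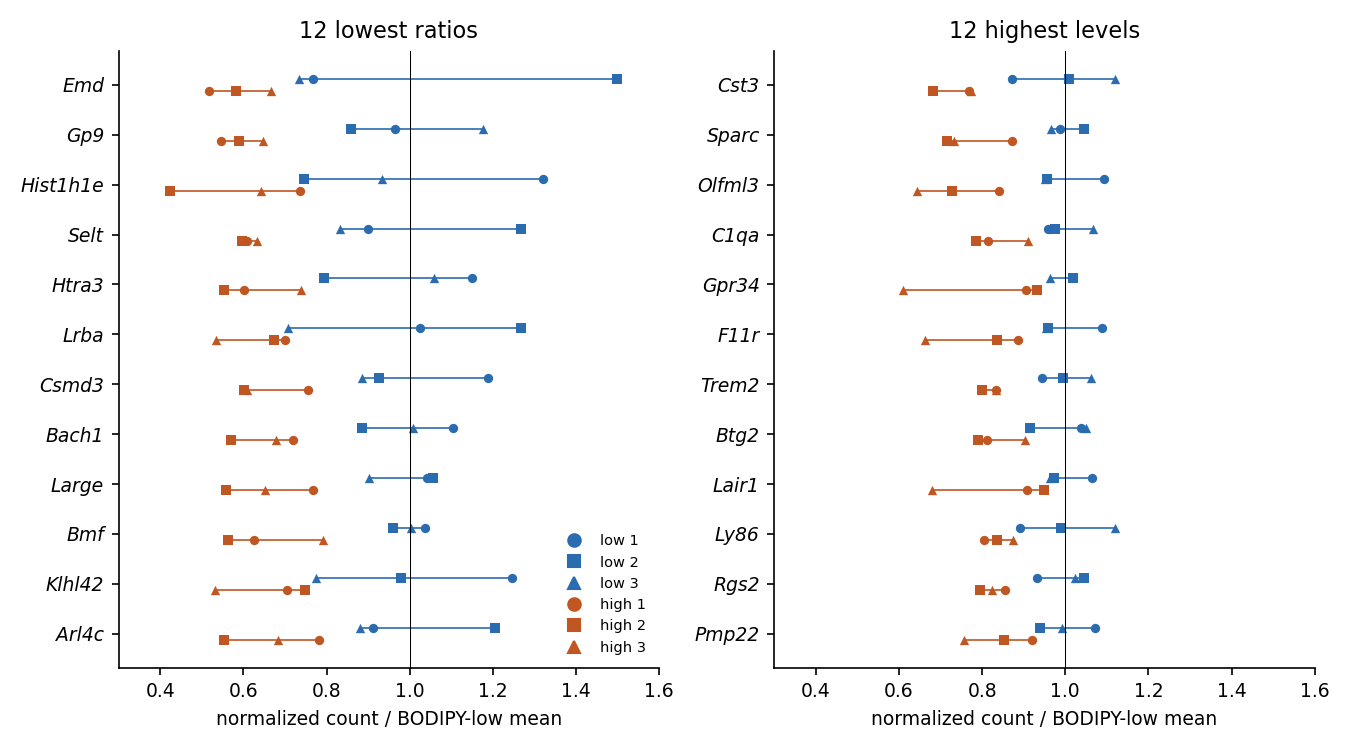
Normalized count in each library divided by the BODIPY-low mean of the gene, for the 12 genes of lowest ratio (left) and the 12 of highest level (right), predicted genes left out; blue is BODIPY-low, orange BODIPY-high, the symbol gives the library number and the line spans the 3 libraries of a gate. Emd shows the lone high value of BODIPY-low library 2, and Gpr34 and Lair1 the low value of BODIPY-high library 3.

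The members differed from other abundant genes in gene structure, which the rule did not use. This was noticed after the members were seen, and it is given with no test. Structure was read from GENCODE M21, with 1 transcript per gene, for 258 protein-coding members (94.2% of the 274) and 6640 other abundant genes. The median number of exons was 5 among members and 10 among the others, the median transcript length 2242.5 against 3078 bases, the coding length 958.5 against 1446 bases and the span on the genome 14897.5 against 25306 bases. GC content of the transcript was alike, with medians of 50.1 and 50.2%. Genes of 1 exon were 17 of the 258 members (6.59%) and 92 of the 6640 others (1.39%). Besides Kctd12, Arl4c, Cebpd and Hist1h1e, they included Purb (0.768) and Klhl9 (0.80), which bind single-stranded DNA and a cullin ligase.

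The pattern held across all abundant genes. Members were 15.6% of 109 genes of 1 exon, 15.9% of 258 of 2 exons, 7.64% of 1231 of 3 to 5, 2.92% of 2155 of 6 to 10, 1.15% of 2179 of 11 to 20 and 1.86% of 966 of over 20. For the rule turned upward the shares were 0, 1.94, 1.22, 2.37, 4.45 and 7.97%. The median ratio of all abundant genes in these classes was 0.876, 0.889, 0.941, 0.972, 1.02 and 1.03. Without the members it was 0.896, 0.906, 0.952, 0.975, 1.02 and 1.03. The gradient was therefore present in genes that the rule left out.

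Each pair of libraries of the same number showed it. For genes of 1 exon the median ratio was 0.849, 0.890 and 0.875 in pairs 1, 2 and 3, and for genes of over 20 exons 1.02, 1.05 and 1.04. Relative to the BODIPY-low mean, genes of 1 exon had medians of 1.08, 0.955 and 0.956 in BODIPY-low libraries 1, 2 and 3 and 0.894, 0.848 and 0.878 in BODIPY-high libraries. BODIPY-low library 1 was thus the highest, and all BODIPY-high libraries lay under all BODIPY-low libraries. Genes of over 20 exons had 1.04, 0.960 and 0.996 against 1.06, 1.00 and 1.03, and there the gates overlapped, since BODIPY-low library 1 lay above BODIPY-high libraries 2 and 3. Over the scalings tried and each library left out in turn, the median ratio stayed between 0.862 and 0.917 for 1 exon and between 1.01 and 1.06 for over 20 exons. The highest value in each case came without BODIPY-low library 1.

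Transcript length moved with exon number and was held roughly constant in classes. Among transcripts under 2000 bases, members were 25.8% of genes of 1 or 2 exons, 5.77% of those of 3 to 10 and 1.11% of those of over 10. Among transcripts over 4000 bases the shares were 9.21, 5.30 and 1.79%. The order was the same in both classes, and the 2000 to 4000 class had it too, at 10.7, 3.27 and 0.983%. Overlap with a gene on the other strand was as common in members (109 of 263 annotated, 41.4%) as in other abundant genes (43.8%).

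Homeostatic surface genes can be set beside genes of like exon number, with members left out on both sides. Those of 1 to 5 exons had a median ratio of 0.830 (12 genes), against 0.941 for 1446 abundant genes of that class, and those of over 5 exons had 0.915 (19 genes), against 1.00 for 5194. Without BODIPY-high library 3 these medians were 0.933 against 0.950 and 0.979 against 1.01, so most of the distance rested on that library. Homeostatic secreted and matrix genes outside the rule had 0.870 (10 genes of 1 to 5 exons) and 0.949 (14 of over 5). Without BODIPY-high library 3 they had 0.926 and 1.03, the last above the 1.01 of its class. Immediate early genes of 1 to 5 exons had 0.935 (25 genes), near the 0.941 of their class, but 0.790 without BODIPY-high library 3. Energy genes of 1 to 5 exons had 0.982 (43 genes) and those of over 5 had 1.05 (66 genes), and without that library 0.897 and 1.04. These medians were chosen after the data were seen. The part of gene structure in the ratios of single genes was not tested.

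**Figure D4:**
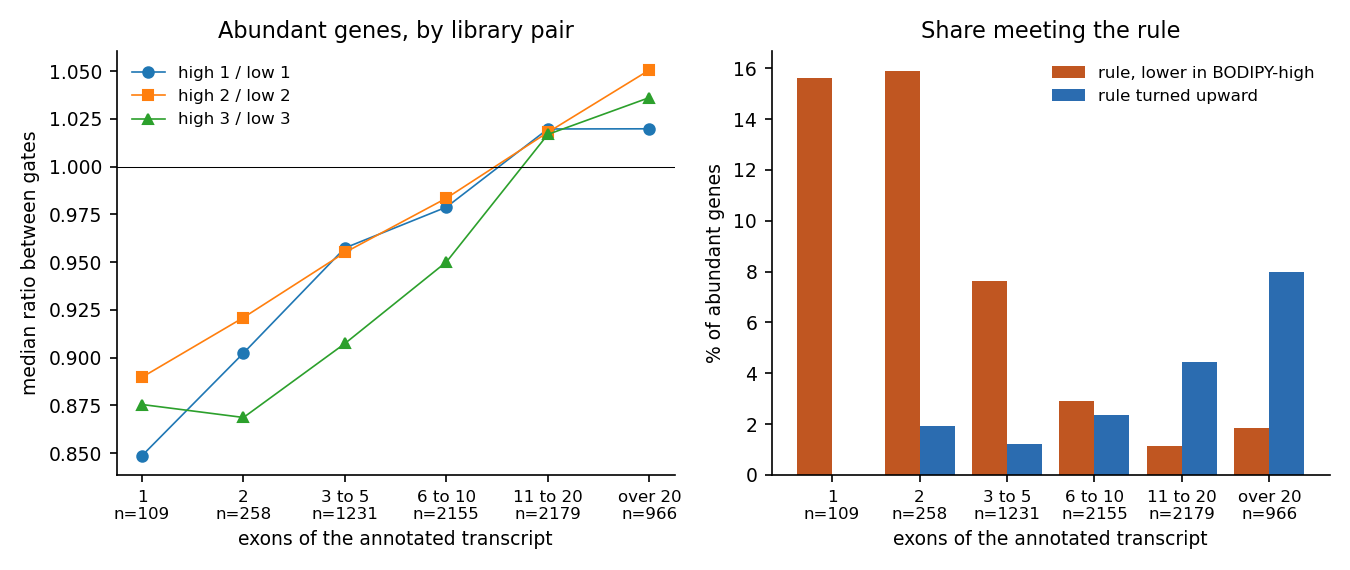
Left, median ratio of BODIPY-high to BODIPY-low over abundant protein-coding genes in each class of exon number, for the 3 pairs of libraries of the same number; right, share of each class that met the rule (lower in BODIPY-high) or its upward form. Medians rise from below 0.90 at 1 exon to above 1 at over 10 exons, and the share of members falls from 15.6 to 1.86%.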

How the data were processed

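RNA was measured in 3 BODIPY-low and 3 BODIPY-high libraries, grouped by their titles. Per the series' design text, the authors ran STAR 2.5.3a against mm10, took its gene counts and used DESeq2. The submitters' processing notes list mm9 and mm10, and which gene annotation was counted is not given in the sources used here. Values were deposited in 1 table. The deposited table holds 1 normalized signal value per gene and library, a gene count over a size factor of the library, both computed by the authors. Values in every library were whole multiples of 1 step (100% within 0.05 of a read), so reads were recovered. In 2 BODIPY-high libraries the step is close to 1 read, which makes the recovery there less certain, so tests on recovered reads stand only as alternatives. A count of 0 allows up to 3 reads, and reads copied by PCR are not independent, so this covers counting error only.

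The members and lists were chosen with earlier results of these data known. Lists were 26 of functions and 8 of other cells. Genes were tested two-sided with limma 3.58.1 (R 4.3.3), on log2(normalized count + 1), with at least 10 normalized counts in at least 3 libraries (12767 genes) and Benjamini-Hochberg adjustment. The log2 scale understates changes of low genes. On simulated data of 12547 genes, limma called 55.1% of genes changed to a fold of 0.5 and 0.0729% of unchanged genes. The simulated folds were 0.25, 0.5, 2 and 4, so the share called at the members' ratios of 0.589 to 0.85 was not measured. Simulated counts were drawn independently, with no deviation shared between libraries of the same number. Libraries of the same number deviated together from their gate means (r = 0.354, 0.244 and 0.363, other pairs -0.255 to -0.0951), so the block pairs them. The labels do not say that samples are separate pools, so a p-value covers only the spread between these samples, which may be technical. Structure came from GENCODE M21 (longest coding transcript per gene) and promoters from RefSeq, matched by symbol.

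Named genes were the 12 members of lowest ratio, the 12 of highest level, up to 4 members and 3 others per list, genes nearest each bound and some known markers. Predicted genes are not named, and results of some single genes and 1 list that the rule selects are not reported here. Alternatives were other pseudocounts, filters, scalings, bounds, edgeR 4.0.16, DESeq2 1.42.0, the block and each library left out.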

Additional observations from a re-analysis of the deposited data

How the results depend on the processing

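Of genes called lower, 3 in all and 3 members as reported, a filter of 50 left 1 and 1, total count scaling 1 and 1, edgeR 1 and 1, DESeq2 32 and 29, and the replicate block 59 and 37. Leaving out each library in turn gave 0 to 2 genes and 0 to 1 members. At an unadjusted p under 0.05 there were 290 lower genes. The cause of these shifts was not tested, other than that leave-one-out fits hold fewer samples. The rule gave 274 genes as reported, 177 with a mean of at least 1000, 129 with a ratio of at most 0.8, 443 with at most 0.9 and 563 when only each pair of the same number had to be lower. With a library left out it gave 434 to 533, since fewer libraries must not overlap, and 223 to 245 of the 274 were among them. TMM scaling gave 355 and total count 197. The median ratio of 0.805 became 0.794 with a mean of at least 250, 0.767 and 0.835 with ratios of at most 0.8 and 0.9, and 0.791 to 0.806 with a library left out. Over 77 named members and 616 alternative values, 575 moved by less than the spread between BODIPY-high libraries, 41 by more, and none changed direction (0.519 to 0.928). That direction was fixed by the rule: with no overlap between gates, leaving out a library cannot bring a ratio to 1. The other scalings shifted values by too little to do so. Another scaling shifted the median log2 ratio of abundant genes from -0.023 to between -0.043 and 0.001. The exon classes and their alternatives were chosen after seeing the data. With 3 libraries in each gate, their number limits the precision.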

Other observations

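Of the genes whose symbol starts with Rpl or Rps, which were left out by name, 77 had a mean of at least 500 and 0 met the other terms of the rule. These prefixes can also match genes of other proteins, so the 77 need not all encode ribosomal proteins. Mitochondrial ribosomal protein genes of the large subunit gave 4 members of 33 abundant genes (Mrpl32, Mrpl43, Mrpl46 and Mrpl51), and zinc finger genes whose symbol starts with Zfp gave 9 of 170 (5.29%), beside 3.82% of all abundant genes. Other symbol groups of at least 3 members were Tmem (8 of 107), Cd (4 of 38), Slc (4 of 141), Fam (3 of 84) and symbols of H followed by a digit (3 of 23). These groups were formed from the symbols after the members were seen, so their shares are a description only.

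Below the abundance bound lay genes with gates that did not overlap and lower ratios than most members. Il6, the inflammatory cytokine, had 173, 170.2 and 158 normalized counts in BODIPY-low and 96.1, 99.7 and 94.7 in BODIPY-high libraries (ratio 0.579, limma adjusted p = 0.230). Tal1, a transcription factor of blood lineages, had 251, 297 and 285 against 175, 171 and 195 (ratio 0.650, limma adjusted p = 0.275). In both genes each gate was tight beside the gap.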
